A study of Mus musculus with 8 samples.

Results

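Gene deserts, long stretches of the genome without a protein-coding gene, held 7763 regions at which Mta2, Mbd3 and Zbtb7a all had a peak in mouse kidney cortex. The peaks of the 3 factors on the autosomes and chromosome X were merged wherever they shared at least 1 bp, which gave 164813 union regions. Of these, 101152 contained a peak of every factor, and 100630 of those were narrower than 4000 bp. A region was kept when its midpoint lay outside every protein-coding gene and more than 100 kb from the nearest gene end, by the RefSeq annotation of GRCm38, and the 7763 regions kept were 7.71% of the 100630. The other 92867 regions comprised 14020 within 1 kb of a gene end, 50739 inside genes and 28108 between genes at 1 to 100 kb from a gene end.

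Mta2 and Mbd3 belong to the NuRD complex (nucleosome remodelling and deacetylase), which slides nucleosomes and removes acetyl groups from histones. Zbtb7a is a zinc finger transcription factor, known as a repressor in red blood cell precursors. Gene deserts often flank genes of development and growth control, and hold enhancers that act on those genes from a long distance.

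The data came from chromatin immunoprecipitation with sequencing on kidney cortex of 2-month-old mice, with 8 libraries in 4 groups of 2 biological replicates, for Mta2, Mbd3, Zbtb7a and Input chromatin, with which the series' design text says binding was compared. Every group, Input included, carried the genotype Mta2flx/flx, which denotes loxP-flanked Mta2 alleles, and the labels name no Cre recombinase and no treatment. Crosslinking used 2 mM disuccinimidyl glutarate followed by 1% formaldehyde, and the sheared chromatin measured 100 to 1000 bp, per the labels' protocols. The sample titles carry the same 2 numbers in every group. The authors deposited 1 merged peak list per factor, and how the replicates were merged is not stated. On these chromosomes the Mta2 list held 149855 peaks, the Mbd3 list 134248 and the Zbtb7a list 124616. No value per mouse was therefore at hand, and values are printed without SD or n because the spread between animals could not be measured. Fold enrichment is the authors' own value, a ratio of signal over background at a peak's summit, and the strongest peak of each factor stands for a region. Where 3 folds follow each other without names, they are those of Mta2, Mbd3 and Zbtb7a in that order. Folds and the presence of peaks come from the same lists that chose the regions, so they are given as descriptions with no test. The cortex mixes many cell types, so a region cannot be assigned to one of them, and the absence of a peak means only a signal under the threshold of the authors' caller, not an unbound region.

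Long non-coding RNAs (lncRNAs) start inside some of the desert regions, and RefSeq sequences of GRCm38.p6 cover 250 bases before to 50 bases after each start. The starts of Lncpint, a lncRNA induced by p53, and Gm46398 are shown because the first lies in one of the 5 desert regions of highest geometric mean fold over the 3 lists and the second in the desert region of highest Zbtb7a fold. The Lncpint window is chr6:31218425-31218724 and the Gm46398 window is chr13:103591310-103591609, both on the minus strand and written 5′ to 3′, with CG dinucleotides in capitals.
Lncpint: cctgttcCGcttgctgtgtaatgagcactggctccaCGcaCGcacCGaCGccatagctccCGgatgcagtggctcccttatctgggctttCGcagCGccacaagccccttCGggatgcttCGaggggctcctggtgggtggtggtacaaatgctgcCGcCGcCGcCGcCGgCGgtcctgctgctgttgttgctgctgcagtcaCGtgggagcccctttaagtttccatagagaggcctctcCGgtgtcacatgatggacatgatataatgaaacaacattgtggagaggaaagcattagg
Gm46398: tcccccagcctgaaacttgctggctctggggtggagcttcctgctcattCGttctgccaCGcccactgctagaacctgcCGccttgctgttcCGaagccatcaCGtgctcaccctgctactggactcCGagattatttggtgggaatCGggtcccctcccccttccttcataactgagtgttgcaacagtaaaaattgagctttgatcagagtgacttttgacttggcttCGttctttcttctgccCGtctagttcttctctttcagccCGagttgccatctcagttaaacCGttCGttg
The Lncpint window contained 18 CG dinucleotides, with a ratio of observed to expected CG of 0.698, and the Gm46398 window contained 12, with a ratio of 0.602. In the windows at 32619 RefSeq starts of every kind, the median ratio was 0.387, and 36.0% had a ratio above 0.6. Among the 188 lncRNA starts inside desert regions, 11.2% did.

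The next 4 windows are shown because they contain the letters GTTAAT or, on the other strand, ATTAAC, a core of the motif of the HNF1 factors, which act in kidney tubules, and lie in strong desert regions. They are the starts of Gm33945 (chr10:21573711-21574010, minus strand), Gm41584 (chr17:45885761-45886060, plus strand), Gm32123 (chr14:25109011-25109310, plus strand) and Gm29012 (chr1:105116203-105116502, plus strand). Capitals mark this core, which shared no base with another motif searched. Other motifs searched are present but not marked. The CACCC box CCCACCC occurs 2 times in Gm41584. The nuclear receptor core AGGTCA occurs 2 times in Gm41584 and 1 time each in Gm33945 and Gm32123, counting both strands.
Gm33945: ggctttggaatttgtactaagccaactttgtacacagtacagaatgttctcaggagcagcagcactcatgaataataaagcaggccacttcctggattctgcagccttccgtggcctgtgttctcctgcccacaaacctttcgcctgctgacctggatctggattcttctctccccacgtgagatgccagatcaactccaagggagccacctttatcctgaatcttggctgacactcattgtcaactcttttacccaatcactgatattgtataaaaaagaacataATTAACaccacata
Gm41584: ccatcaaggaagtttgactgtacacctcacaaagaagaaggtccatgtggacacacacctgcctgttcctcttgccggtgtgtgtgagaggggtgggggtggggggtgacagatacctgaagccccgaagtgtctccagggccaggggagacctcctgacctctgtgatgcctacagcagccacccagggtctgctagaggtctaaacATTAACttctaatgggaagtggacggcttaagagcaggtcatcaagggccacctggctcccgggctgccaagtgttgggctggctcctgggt
Gm32123: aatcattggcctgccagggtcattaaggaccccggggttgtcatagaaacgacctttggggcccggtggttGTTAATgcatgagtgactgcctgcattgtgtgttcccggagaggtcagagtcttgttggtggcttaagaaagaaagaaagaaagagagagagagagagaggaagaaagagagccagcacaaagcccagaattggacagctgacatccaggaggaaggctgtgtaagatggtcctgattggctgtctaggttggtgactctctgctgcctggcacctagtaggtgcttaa
Gm29012: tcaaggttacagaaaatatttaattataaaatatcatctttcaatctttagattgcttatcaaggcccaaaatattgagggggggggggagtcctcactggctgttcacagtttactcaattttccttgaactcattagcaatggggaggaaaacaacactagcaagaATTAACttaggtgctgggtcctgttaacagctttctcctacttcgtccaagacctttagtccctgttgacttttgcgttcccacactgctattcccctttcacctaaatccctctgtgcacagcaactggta
The Gm33945 window lies in the desert region of highest Mta2 fold, with folds of 58.4 for Mta2, 50.04 for Mbd3 and 35.6 for Zbtb7a. The Gm41584 window lies in a region whose midpoint is 131433 bp from Vegfa, the vascular endothelial growth factor that podocytes secrete, with folds of 28.1, 34.04 and 42.0. Gm32123 starts in a region 348948 bp from Zmiz1 with folds of 30.4, 24.9 and 28.0, and Gm29012 in one 120200 bp from Cdh20 with folds of 21.1, 30.3 and 25.2.

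Most desert regions were of moderate strength. Over the 7763 regions the Mta2 fold had a median of 7.09 (95% interval of the median 6.99 to 7.20), the Mbd3 fold of 5.84 (5.74 to 5.94) and the Zbtb7a fold of 4.97 (4.89 to 5.01). In all 92867 other three-factor regions these medians were 7.72, 6.55 and 6.005. The intervals come from order statistics over regions and cover counting error only. At gene ends the medians were 13.8, 12.4 and 12.7 for the 3 factors in that order. Inside genes they were 6.99, 5.94 and 5.45, and in the intergenic regions closer than 100 kb they were 7.20, 5.99 and 5.46. For Mta2 the desert median thus stood beside those inside genes and near genes. For Mbd3 and Zbtb7a it was the lowest of the 4 places, for Mbd3 at 5.84 against 5.94 inside genes.

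The range within the deserts was wide. Mta2 folds ran between 1.18 and 58.4, with 3.55 and 18.3 at the 10th and 90th percentiles. Mbd3 folds ran between 1.43 and 55.3, and Zbtb7a folds between 1.27 and 83.4. A Mta2 fold of at least 10 was found in 2465 desert regions, which is 31.8% of them, where 38.0% of all 100630 three-factor regions had one. For Mbd3 the count was 1775, or 22.9%, where all three-factor regions gave 31.2%, and for Zbtb7a it was 1494, or 19.2%, where all gave 29.2%. The pooled shares include gene ends, where they were 67.7% for Mta2, 60.7% for Mbd3 and 61.1% for Zbtb7a. Inside genes they were 32.9%, 26.8% and 24.6%, and in the intergenic regions closer than 100 kb 34.0%, 26.7% and 24.3%. All 3 folds were at least 10 in 1282 desert regions, or 16.5%, against 26.0% of the other regions, gene ends included. The strongest 1% of three-factor regions by fold included 55 desert regions for Mta2, 53 for Mbd3 and 33 for Zbtb7a. These were 0.708%, 0.683% and 0.425% of the desert regions, each below the 1% of all three-factor regions, gene ends included.

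**Figure D1:**
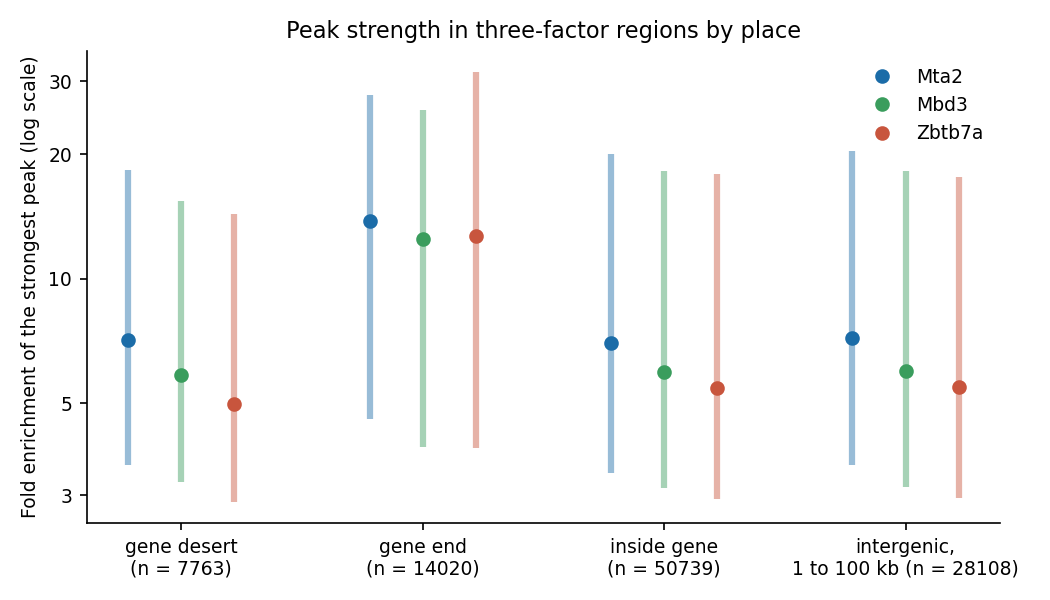
Fold enrichment of the strongest peak (log scale) of Mta2, Mbd3 and Zbtb7a in three-factor regions of gene deserts, gene ends, gene bodies and intergenic sequence at 1 to 100 kb. Points are medians and bars span the 10th to 90th percentiles over regions; the Zbtb7a median is 4.97 in deserts and 12.7 at gene ends.

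Desert regions were narrower than the others, with a median union width of 536 bp against 647 bp. By place the median was 1148 bp at gene ends, 608 bp inside genes and 583 bp in the intergenic regions closer than 100 kb. Exactly 1 peak of each factor was held by 7410 desert regions, or 95.5%, against 90.8% of the others. The summits of the factors lay close together. The median distance in desert regions was 23 bp between Mta2 and Mbd3, 27 bp between Mta2 and Zbtb7a and 26 bp between Mbd3 and Zbtb7a, against 22, 26 and 25 bp in the other regions. All 3 summits fell within 50 bp of each other in 4642 desert regions, which is 59.8% against 60.3% of the others. In the strongest 10% of desert regions by geometric mean fold this share was 79.5%, and in the weakest 10% it was 36.0%.

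The share of union regions with peaks of every factor was lower in the deserts, which was not tested because the rule used it. Of 14406 union regions under the width limit in deserts, 7763 had all 3 factors, a share of 53.9% (exact Clopper-Pearson 95% interval 53.1 to 54.7), against 62.0% (61.7 to 62.2) of 149882 union regions elsewhere. The share was 81.7% at gene ends, 59.0% inside genes and 60.2% in the intergenic regions at 1 to 100 kb. Regions with peaks of the NuRD subunits Mta2 and Mbd3 but not Zbtb7a made up 14.8% of the desert union regions, against 10.5% elsewhere, and Mta2 alone 17.4%, against 13.8%. Zbtb7a alone made up 4.19% in deserts and 4.40% elsewhere.

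To set the factors side by side, each fold was ranked as a percentile of its own list over the 100630 three-factor regions. Desert regions had a median Mta2 percentile of 46.0, a median Mbd3 percentile of 44.9 and a median Zbtb7a percentile of 41.2, and the other regions had 50.4, 50.7 and 50.8. These other regions include gene ends, with 75.3, 76.5 and 78.4. Inside genes the median percentiles were 45.3, 45.8 and 46.0, and in the intergenic regions closer than 100 kb they were 46.7, 46.3 and 46.3. Mta2 had the highest rank of the 3 factors in 37.0% of desert regions, against 30.4% of the others, and Zbtb7a in 31.6%, against 39.1%. The Zbtb7a percentile lay more than 25 points below the mean of the others' percentiles in 578 desert regions, or 7.45%, against 3.97% of the other regions. It lay more than 25 above in 233, or 3.001%, against 4.02%. Over the desert regions the Spearman correlation of folds was 0.884 between Mta2 and Mbd3, 0.767 between Mta2 and Zbtb7a and 0.830 between Mbd3 and Zbtb7a, and over the others 0.923, 0.853 and 0.885. Inside genes the correlations were 0.909, 0.830 and 0.867, and in the intergenic regions closer than 100 kb 0.903, 0.821 and 0.861. All these correlations run over regions, 7763 in deserts and 92867 elsewhere, which share the libraries and are not independent.

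**Figure D2:**
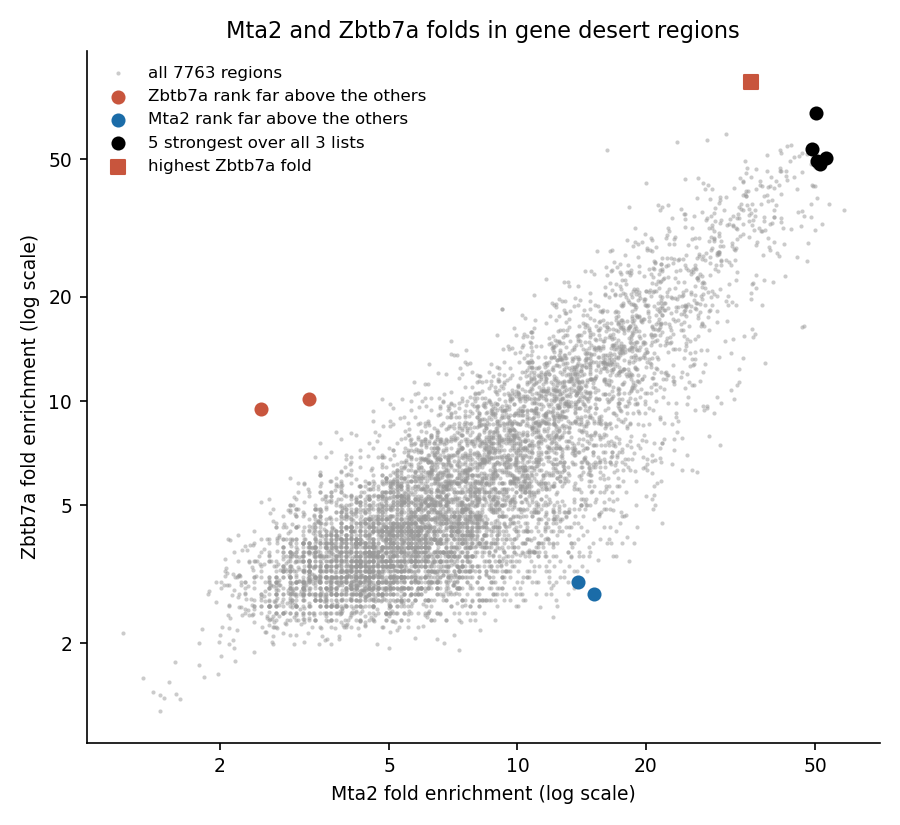
Zbtb7a fold against Mta2 fold, both on log scales, in the 7763 desert regions (grey), with regions named in the text in colour. The 5 strongest regions lie at Mta2 folds between 49.2 and 53.1, and the regions tilted to Mta2 or to Zbtb7a lie off the main band.

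The strongest desert regions had high folds of all 3 factors. A region 276366 bp from Zmiz1, a coactivator of the PIAS-like family, had the highest geometric mean fold (chr14:25180826-25182192), with folds of 50.2, 47.7 and 68.0. A region 424095 bp from Jarid2, which is an accessory subunit of Polycomb repressive complex 2, had folds of 53.1, 54.5 and 50.3 (chr13:44306175-44307184). A region 109929 bp from Bod1 held the highest Mbd3 fold of the deserts, 55.3, beside 50.5 for Mta2 and 49.3 for Zbtb7a (chr11:31554739-31555703). The other regions of this group lay 142081 bp from Irf2bp2, a corepressor (chr8:126734327-126737808), with folds of 49.2, 50.6 and 53.4, and at the Lncpint start shown above (chr6:31215535-31219329), with 51.4, 51.9 and 48.4. Their 3 summits lay within 8 bp at Bod1, 21 bp at Zmiz1, 42 bp at Irf2bp2, 44 bp at Jarid2 and 177 bp at Lncpint. The third highest Mbd3 fold, 54.5, belonged to a region 276772 bp from Maf (chr8:115982786-115984547), a leucine zipper transcription factor, with 43.8 for Mta2 and 49.3 for Zbtb7a.

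For Mta2, the highest fold after that of the Gm33945 region was 54.0, in a region between Serp2 and Lacc1 (chr14:76817146-76820577) with 47.2 for Mbd3 and 37.1 for Zbtb7a. For Zbtb7a, the highest fold of all desert regions, 83.4, belonged to the Gm46398 region 146334 bp from Srek1 (chr13:103591152-103593311), where Mta2 had 35.4 and Mbd3 36.1. A region 117989 bp from Psmg1 and 140895 bp from Ets2 had a Zbtb7a fold of 59.2, with 30.9 for Mta2 and 21.1 for Mbd3 (chr16:95860784-95863105).

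The most tilted regions stood far higher in 1 list than in the others. The Mta2 rank exceeded the others most in a region beside Mgmt (chr7:136613378-136614232), with folds of 13.9 for Mta2, 5.24 for Mbd3 and 3.002 for Zbtb7a, and in one beside Gm5148 (chr3:38076517-38077388), with 15.1, 7.25 and 2.78. The Mbd3 rank did so near Spring1 (chr5:118374976-118375474), with folds of 3.86, 11.0 and 5.67, and near Mbnl1 (chr3:60757254-60757673), with 5.25, 7.42 and 2.23. The Zbtb7a rank did so near Pard3b (chr1:61407173-61407572), with 2.50, 3.03 and 9.48, and near Tll1 (chr8:64382510-64382916), with 3.23, 3.62 and 10.1.

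Three-factor regions became sparser with distance from genes. Per Mb of intergenic sequence there were 46.7 at 1 to 10 kb from a gene end, 34.9 at 10 to 50 kb and 24.3 at 50 to 100 kb, outside the deserts. Within the deserts there were 17.8 per Mb at 100 to 200 kb, 10.9 at 200 to 500 kb, 4.47 at 500 to 1000 kb and 2.49 beyond 1000 kb, from 3896, 3043, 655 and 169 regions. The median Zbtb7a fold was 5.67, 5.45, 5.23, 5.12, 4.89, 4.56 and 4.20 over the same 7 distances, lower at each step. The median Mta2 fold stayed between 7.12 and 7.30 up to 200 kb, was 6.88 at 200 to 500 kb and at 500 to 1000 kb, and was 5.63 beyond 1000 kb. The share of union regions with all 3 factors was 60.6% at 1 to 10 kb, 55.7% (54.5 to 56.9) at 100 to 200 kb and 48.6% (43.2 to 54.0) beyond 1000 kb.

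**Figure D3:**
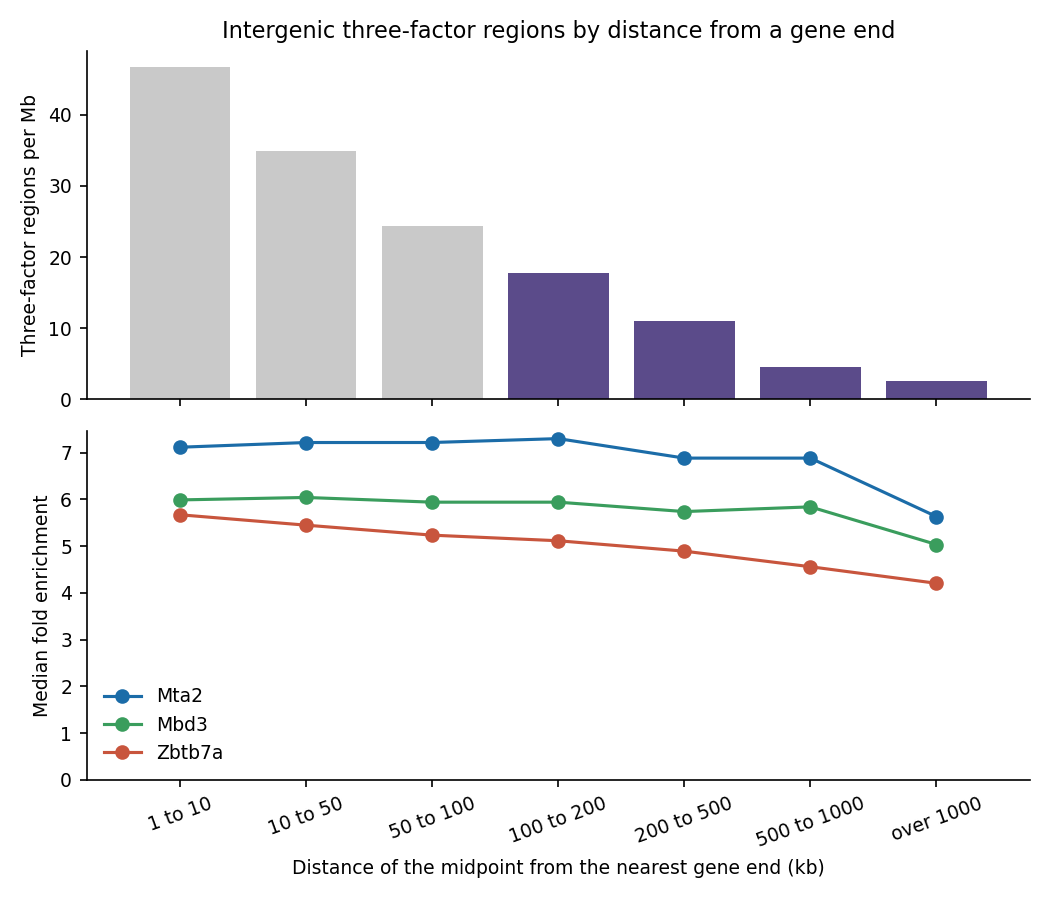
Upper panel, three-factor regions per Mb of intergenic sequence by distance from the nearest gene end (kb), with the gene deserts in purple; lower panel, median fold of each factor. Density is 46.7 per Mb at 1 to 10 kb and 2.49 beyond 1000 kb, and the Zbtb7a median is 5.67 and 4.20 in these classes.

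The remotest regions lay more than 2 Mb from any protein-coding gene. One was 2231145 bp from Celf4 (chr18:27985462-27985868), with folds of 5.74 for Mta2, 4.23 for Mbd3 and 6.23 for Zbtb7a, and another 2137606 bp from Cntnap5b (chr1:102628086-102628324), with 2.20, 2.46 and 3.46. A region 2131349 bp from Pcdh17, a neuronal protocadherin, was stronger, with folds of 15.4, 14.9 and 10.8 (chr14:82311938-82312491). Just inside the 100 kb limit were regions 100029 bp from Foxa2, with folds of 6.47, 5.64 and 8.01, and 100036 bp from Btg1, with 6.18, 4.69 and 6.22. Just outside were regions 99999 bp from Ldb2, with 14.8, 14.3 and 12.9, and 99978 bp from Nr3c1, the glucocorticoid receptor gene, with 4.48, 3.93 and 3.68. At the width limit, the widest regions kept were the Lncpint region at 3795 bp and one near Lama2 at 3546 bp, with folds of 2.38, 2.33 and 3.31. The narrowest of 6 left out were 4153 bp wide, before Gdi2, with 7.504, 8.001 and 11.4, and 4379 bp wide, between Gm5148 and Ankrd50, with 34.5, 25.5 and 16.0. The widest left out, of 8054 bp and 135851 bp from Vegfa, had folds of 61.8, 58.1 and 80.1.

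The deserts were unevenly filled. The length of a desert leaves out the 100 kb next to each bordering gene, so the genes themselves lie farther apart. The deserts spanned 712 Mb, 27.7% of the length examined, and held 10.9 three-factor regions per Mb, against 49.997 per Mb elsewhere. By chromosome the desert density had a median of 10.7 per Mb, with 19.96 on chromosome 13 and 3.50 on chromosome X, where the density outside deserts was also low at 13.9 per Mb. Of 1533 deserts, 449 held no region, and the median was 2. The 77 deserts with at least 20 regions held 2463 of the 7763, or 31.7%, in 9.51% of the desert length. Among the 204 deserts of at least 1 Mb the density ran between 0 and 58.8 per Mb, with a median of 3.47. The longest desert without a region was the 3014 kb between the cadherin genes Cdh8 and Cdh11 on chromosome 8, followed by 2136 kb between Ankrd7 and Kcnd2 and 2036 kb between Cadm2 and Speer2.

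The fullest desert, between Gm44812 and Mctp2 on chromosome 7, held 76 regions in 1293 kb. Strength within a desert is by geometric mean fold, and the strongest region here lay 285 kb from Gm44812, with folds of 30.0 for Mta2, 26.6 for Mbd3 and 29.0 for Zbtb7a (chr7:70868830-70870453), and its median folds were 10.2, 6.65 and 5.17. The desert between Cd83 and Jarid2 on chromosome 13 held 68 in 728 kb, or 93.5 per Mb, its 3 strongest regions having Mta2 folds of 53.1, 41.3 and 38.6. The desert between Myc and Gsdmc on chromosome 15 held 65 in 1586 kb. Its strongest region lay 305 kb from Myc (chr15:62294769-62295955), with folds of 50.1, 53.1 and 41.9, and the next lay 268 kb and 125 kb from Myc, with Mta2 folds of 37.3 and 33.9. The desert between Mki67 and Mgmt held 56 and that between Tnp1 and Tns1 held 55, as many as the one between Zfp608 and Gramd3. In the Zfp608 desert the folds of the strongest region were 47.1 for Mta2, 32.8 for Mbd3 and 16.5 for Zbtb7a (chr18:55133195-55135052).

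**Figure D4:**
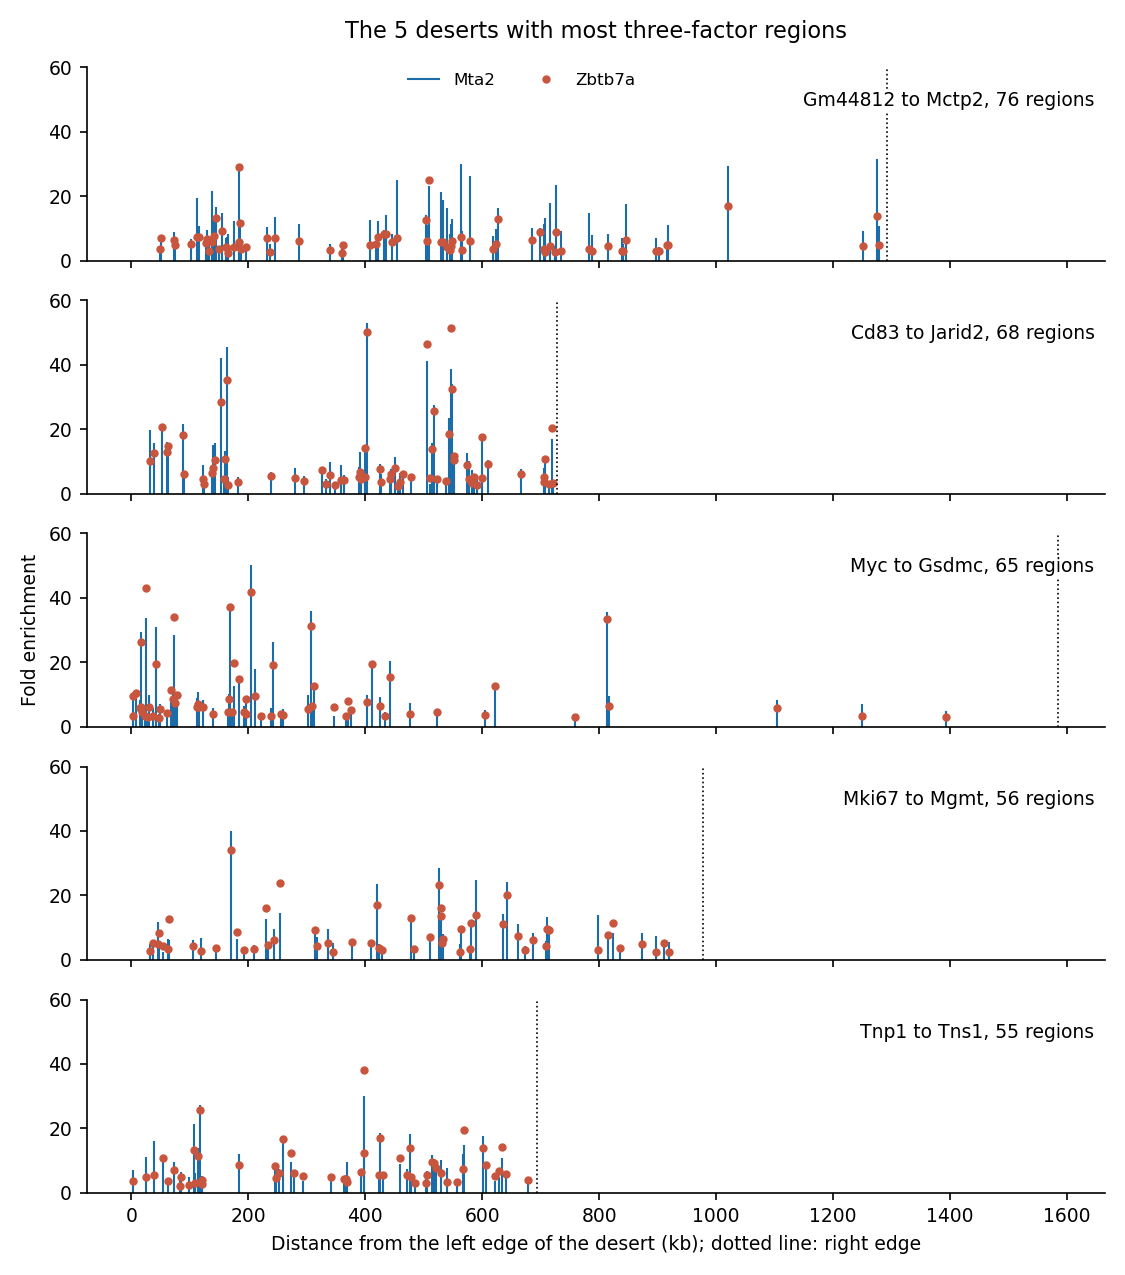
Maps of the 5 deserts with most three-factor regions, with distance from the left edge of the desert (kb) on the horizontal axis and fold enrichment on the vertical axis. Blue lines are Mta2 folds and red points Zbtb7a folds of the same region; strong regions with Mta2 folds near 50 stand among many of lower fold in the deserts at Jarid2 and Myc.

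The deserts of highest density were sought among those with at least 5 regions, and those named here were short. Short deserts with fewer regions could not enter this choice, so whether density depends on desert length was not tested. Between Cebpb, a leucine zipper factor of the acute phase response, and Ptpn1 there were 12 regions in 40.3 kb, or 298 per Mb. Between Rassf10 and Arntl, a core component of the circadian clock, there were 6 in 21.0 kb, and between Irf2bp2 and Tomm20 there were 36 in 137 kb, or 263 per Mb. The median gap between neighbouring regions of 1 desert was 12.3 kb, against 5.16 kb between the other three-factor regions, and 45.9% of the gaps were under 10 kb. Joined over such gaps, 4546 desert regions, or 58.6%, formed 1480 clusters of 2 or more, and 3217 stood alone. Regions alone had median folds of 6.15 for Mta2, 5.23 for Mbd3 and 4.37 for Zbtb7a. In clusters of 2 to 4 the medians were 7.82, 6.34 and 5.34, and in clusters of at least 5 they were 8.03, 6.55 and 5.88. Clusters, their folds and the share of gaps under 10 kb were not computed for the other three-factor regions. The median gap of those regions, 5.16 kb, is itself under 10 kb. The largest cluster, between Klf14 and the Lncpint start, held 31 regions in 97.5 kb (chr6:31070473-31167926) with a median Mta2 fold of 4.69. From chr6:31093563 on, this cluster lies within the Lncpint gene. The next, between Nudt4 and Eea1, held 22 in 79.1 kb, with Mta2 folds between 2.38 and 38.7.

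At the start of chromosome 9 a cluster of 16 regions (chr9:3000273-3038022) had low folds, with a median of 1.81 for Mta2, 1.82 for Mbd3 and 1.61 for Zbtb7a. Of the 7763 regions, 14 had a fold under 3 and a deposited −log10 q above 100 in every list, and 11 of these lay in this cluster, with 2 on chromosome 2 and 1 on chromosome 14. The region chr9:3023452-3025242 had folds of 2.93, 2.78 and 2.63 and a −log10 q of 7022 for Mta2. What sets the combination of low fold and high −log10 q was not tested, and its count among the other three-factor regions is not given here.

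The protein-coding gene nearest to a region is a position and not a measured target. In all, 1580 genes were nearest to at least 1 desert region, which is 7.30% of 21631 protein-coding genes and 61.1% of the 2584 genes that border a desert, where the median was 1 region. Myc, a transcription factor of cell growth, was nearest to 67 regions at 103 to 859 kb, with highest folds of 50.1 for Mta2, 53.1 for Mbd3 and 43.1 for Zbtb7a. Gm44812 was nearest to 53 and Zfp608 to 48. Adgrl2, an adhesion receptor of the latrophilin family, was nearest to 47, and Tbl1xr1, a subunit of the NCoR corepressor complex, to 46, with highest folds of 50.6, 43.2 and 42.6. Pik3r1, the regulatory subunit of PI3-kinase, was nearest to 43, and Jarid2 to 41. Cited2, a coregulator that binds p300, was nearest to 39, Mctp2 to 37, and Id2, an inhibitor of basic helix-loop-helix factors, to 34, with highest folds of 44.7, 46.2 and 50.7.

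Genes were grouped into 10 lists by function or cell type, beside which 11.9% of all protein-coding genes bordered a desert. Of 56 transcription factors of the nephron and kidney, 37 bordered a desert and 33 of those, or 89.2%, were nearest to a region, with 254 regions in all and a median of 4 per bordering gene. Maf had 31, with highest folds of 47.8, 54.5 and 51.9. Sall1, a zinc finger factor required for kidney development, had 23, with 50.1, 44.0 and 31.1, and Pou3f3, a POU factor of the developing nephron, had 21, with 19.8, 17.4 and 19.5. Of 33 immediate early and proto-oncogene factors, 16 bordered a desert and 14 were nearest to a region, with a median of 6.5. After Myc and Id2, Ets1 had most, 27, with highest folds of 39.1, 29.5 and 32.5.

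Of 64 genes of growth factor, Bmp, Wnt and TGF-beta signalling, 32 bordered a desert and 25 were nearest to a region, with a median of 1.5. Fzd8, a Wnt receptor, had 24. Fgf9, a growth factor of nephron progenitors, had 15, and Bmp4 had 13, with highest folds of 42.7, 43.9 and 46.2. Of 42 injury, senescence and stress response genes, 6 bordered a desert and 5 were nearest to a region. Gadd45g, a stress-induced growth arrest gene, had 27, with highest folds of 49.995, 53.3 and 52.1. Sox9, which marks regenerating tubule cells, had 6, with highest folds of 37.4, 37.0 and 41.8, and Gadd45a had 5.

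Lists of differentiated kidney cells had fewer genes beside deserts than the list of kidney transcription factors. Of 53 proximal tubule genes, 10 bordered a desert and 7 were nearest to a region, Cyp7b1 to 9, the endocytic adaptor Dab2 to 6 and the fucosyltransferase Fut9 to 4. Of 50 genes of the loop of Henle, distal tubule and collecting duct, 12 did and 9 were nearest to a region. Sgk1, a kinase that controls sodium transport, had 14, with highest folds of 19.8, 15.8 and 14.1, Kit had 10 and Tfap2b had 10. Of 55 podocyte and focal segmental glomerulosclerosis (FSGS) genes, 17 did and 11 were nearest to a region, or 64.7% of those that border a desert, with a median of 1. Kirrel3, of the nephrin-like Neph family, had 8, with highest folds of 5.95, 4.53 and 7.12. Vegfa had 6, with highest folds of 28.1, 34.04 and 42.0, and Podxl, the podocyte sialomucin, had 5, with a highest Mta2 fold of 5.84.

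Of 47 endothelial, mesangial and stromal genes, 17 bordered a desert and 14 were nearest to a region. Plpp3, a lipid phosphatase, had 25, with highest folds of 42.7, 44.9 and 44.7, Tbx3 had 17, and Cdh5, the cadherin of endothelial junctions, had 9. Of 34 macrophage and T cell genes, 6 did and 3 were nearest to a region, with Ets1 again at 27, Ptprc, the leukocyte antigen CD45, at 10 and Satb1 at 4. Genes of neuronal adhesion and synapses, a list for a tissue other than kidney, had the largest share beside deserts of the 10 lists, 51 of 60. Of these 40 were nearest to a region, or 78.4%, with a median of 2. Pcdh17 had 15, with highest folds of 17.0, 22.0 and 18.1, and Pcdh7 and the netrin receptor Unc5d had 14 each. The lists differ in how often their genes border a desert. The share of bordering genes nearest to a region is therefore the one to set beside the 61.1% of all bordering genes. It was 87.5% for immediate early factors, 83.3% for injury genes, 82.4% for endothelial and stromal genes and 78.1% for growth factor signalling. For distal tubule genes it was 75%, for proximal tubule genes 70% and for macrophage and T cell genes 50%. Only the macrophage and T cell list was below 61.1%, at 3 of 6 bordering genes, and the share of injury genes was 5 of 6. These shares were not tested, and desert length did not enter them.

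Non-coding genes lay close to many desert regions. In all, 3097 regions, or 39.9%, were within 10 kb of a RefSeq gene that is not protein-coding, against 48.9% of the intergenic three-factor regions at 1 to 100 kb. Counting overlap alone, the shares were 24.8% in deserts and 23.4% near genes. For lncRNAs the share within 10 kb was 34.5%, against 38.4%, and the share that overlapped one was 23.5%, against 20.8%. For pseudogenes the share within 10 kb was 5.44%, against 11.7%. The non-coding genes at the strongest regions were Gm32307, 3294 bp from the Zmiz1 region, Gm31603, 4577 bp from the Irf2bp2 region, Lncpint and its neighbour 2210408F21Rik, 1022 bp away, and the pseudogene Gm10293, 3119 bp from a region near Foxo1 with folds of 48.8, 54.3 and 48.5.

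Starts of lncRNAs were a small part of the desert regions. RefSeq lists 2068 lncRNA starts in deserts, and 188 of them, from 169 genes, lay inside 168 desert regions, which are 2.16% of the 7763. These are 9.09% of the desert starts, whereas of 5215 intergenic lncRNA starts at 1 to 100 kb from a gene end, 17.7% lay in a three-factor region. Desert regions with a start had median folds of 8.27 for Mta2, 7.01 for Mbd3 and 6.15 for Zbtb7a, and the other desert regions 7.09, 5.78 and 4.90. Their median widths were 754 bp and 532 bp.

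Motifs were counted on both strands of the windows at these starts, as letters and not as bound sites. The HNF1 core GTTAAT was present in 19.7% of the 188 windows (exact 95% interval 14.3 to 26.1), against 10.9% (9.51 to 12.4) of 1835 windows at desert lncRNA starts outside every union region, and in 7.10% of all 32619 windows. The 188 windows include several starts of the same gene, so they are not independent. The GC box GGGCGG was present in 13.3% (8.79 to 19.0), against 4.90%, and in 35.9% of all. The CTCF core AGGGGGC was present in 6.91% against 2.997%, and in 10.7% of all, and the nuclear receptor core AGGTCA in 22.3% against 19.1%, and in 16.2% of all. The CACCC box CCCACCC was present in 14.4% against 11.1%, and in 17.5% of all, and the HNF4 core AAAGTCC in 4.79% against 4.47%, and in 4.23% of all. The AP-1 letters TGANTCA, where N is any base, were present in 5.85% (2.96 to 10.2) against 10.6% (9.25 to 12.1), and 7.85% of all windows held them. Base composition differed too, with a median GC content of 48.8% in the 188 windows, 44.3% in the 1835 and 53.0% in all. Its part in the motif shares was not tested. The 35 desert regions whose start window held the HNF1 core had median folds of 8.98 for Mta2, 7.45 for Mbd3 and 5.70 for Zbtb7a, and the 133 with a window that lacked it had 8.14, 6.65 and 6.43.

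**Figure D5:**
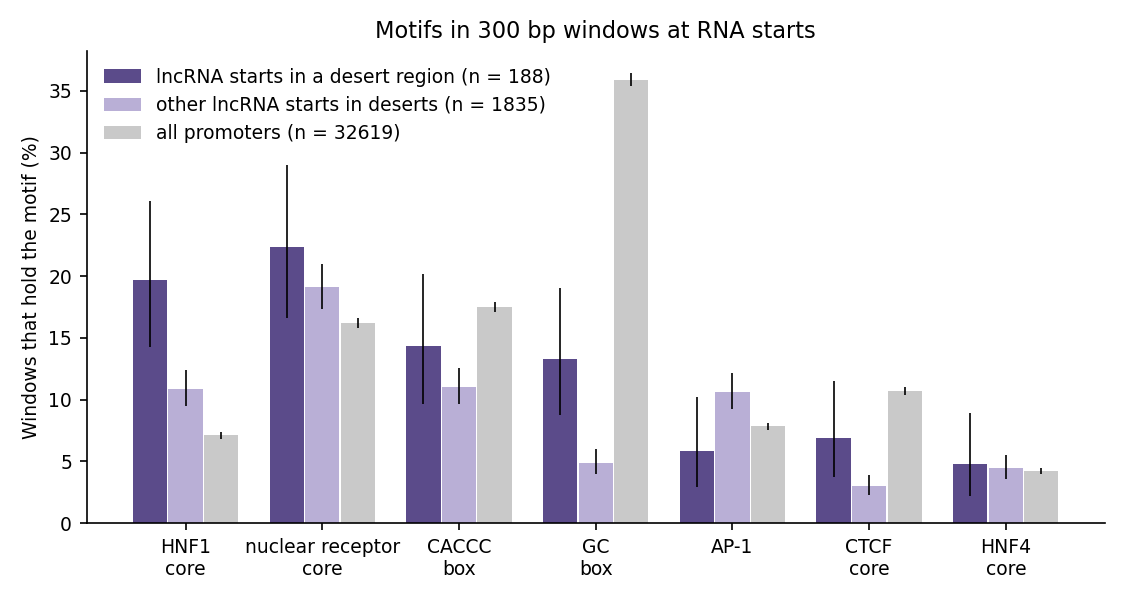
Share of windows of 300 bp at RNA starts (%) that hold each motif on either strand, for lncRNA starts in desert regions, other desert lncRNA starts and all RefSeq starts. Error bars are exact 95% binomial intervals; the HNF1 core is at 19.7%, 10.9% and 7.10% in the 3 sets.

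MicroRNAs are short RNAs that repress messenger RNAs which pair with their seed. A microRNA gene lay within 10 kb of 42 desert regions, or 0.541%. The share was 1.295% in the intergenic three-factor regions at 1 to 100 kb. In all, 36 microRNA genes lay this close to a desert region, 32 of them with a mature sequence in RefSeq. The 5 at the strongest regions are shown for identity, with the seed, bases 2 to 8, in capitals.
miR-6372: aGAACUGGggaaacuuccagccu
miR-5118: aAGGUUAGgccagccuggu
miR-12179-5p: uCUCUGUCcuccaguucug
miR-7214-3p: cUCAGUCCugaccccuugagcgca
miR-12204-5p: uUGAGUCUuagaugagug
Mir6372 lay 7395 bp from a region with folds of 27.8 for Mta2, 23.2 for Mbd3 and 57.0 for Zbtb7a (chr11:26209743-26211104), and Mir5118 lay 1932 bp from one with 20.9, 18.6 and 25.5. Gm51282, which gives miR-12179, lay 9423 bp from a region with 17.4, 18.4 and 23.6, and Gm51286, which gives miR-12204, 5476 bp from one with 17.7, 18.3 and 16.9. Closer but weaker desert regions also lay beside some of these genes. Their distance was 908 bp for Mir6372, with folds of 2.92, 3.83 and 2.94. It was 276 bp for Mir5118, with 8.34, 6.14 and 6.78, and 4269 bp for Gm51286, with 6.67, 7.34 and 5.20. Mir7214 was the only one that a desert region overlapped (chr17:27316923-27318139), with folds of 18.8, 20.1 and 19.0.

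Several well known microRNAs, chosen after their values were seen, also lay near desert regions. Their mature sequences are shown for identity, with seeds in capitals.
miR-802-5p: uCAGUAACaaagauucauccuu
miR-30a-5p: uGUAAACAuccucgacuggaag
miR-125b-5p: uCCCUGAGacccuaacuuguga
miR-99a-5p: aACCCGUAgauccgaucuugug
let-7c-5p: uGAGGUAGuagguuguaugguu
Mir802, a microRNA abundant in liver, lay 877 bp from a region with folds of 18.3, 17.4 and 14.1, the nearest of 3. Mir30a, of a family expressed in podocytes, lay within 10 kb of 3 regions, the strongest with 11.9, 13.6 and 7.35. Mir125b-1 also had 3, with the strongest at 5144 bp and folds of 11.4, 10.7 and 9.79. Mir99a and Mirlet7c-1 shared a region, 4024 and 4745 bp away, with folds of 10.4, 8.66 and 5.45.

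The pair Mir29a and Mir29b-1 and the pair Mir221 and Mir222 each share a seed and lay side by side, and are shown with the seed again in capitals. Mir125b-1 on chromosome 9 and Mir125b-2 on chromosome 16 give the same miR-125b-5p.
miR-29a-3p: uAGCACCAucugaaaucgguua
miR-29b-3p: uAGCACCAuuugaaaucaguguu
miR-221-3p: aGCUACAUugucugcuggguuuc
miR-222-3p: aGCUACAUcuggcuacugggucu
Mir29a and Mir29b-1 both lay near the first region of the large Klf14 cluster, 7726 and 7380 bp away, with folds of 3.25, 3.58 and 3.02. Mir221 and Mir222 on chromosome X lay 6482 and 7081 bp from a region with folds of 5.32, 4.53 and 3.11. A row of 7 microRNA genes on chromosome 12, Mir377, Mir541, Mir409, Mir412, Mir369, Mir410 and Mir3072, shared a region with folds of 3.55, 4.23 and 3.89. The rest were Mir6363, Mir7216, Mir137, Mir125b-2, Mirlet7a-2, Mir1952, Mir124a-2, Gm51272, Mir6356, Mir6368, Mir466f-4, Mir8099-2, Mir6408, Mir6390 and Mir101c, the last 647 bp beyond the low-fold cluster of chromosome 9.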

How the data were processed

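Chromatin of kidney cortex was immunoprecipitated for Mta2, Mbd3 and Zbtb7a, with Input, in 2 replicates each, per the labels. Per the submitters' processing notes the tools were Bowtie2, deepTools, MACS2 and bedtools on mm10, with no version stated. The labels' protocols state a depth of 100 M paired-end reads, and read depth was not analysed here. The authors deposited 1 peak list per factor, without column names and laid out as narrowPeak. Each line holds a deposited fold, a ratio of signal over background, a deposited −log10 q-value, a deposited display score and the deposited summit offset. How replicates and Input entered the lists is not stated, and columns of other samples numbered 0.

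RefSeq tables of GRCm38.p6, whose coordinates are those of mm10, gave gene positions, promoter windows and microRNAs. No genome sequence was used, so the planned motif and GC counts over region sequences were replaced by counts in promoter windows at lncRNA starts, a choice made after the data were seen. Regions were built and counted with Python 3.11.15, numpy 2.4.6, pandas 2.3.3 and scipy 1.17.1, and figures drawn with matplotlib 3.10.9. The merging and counting code was checked on simulated data. Intervals are exact Clopper-Pearson or order-statistic 95% intervals and cover counting error only.

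The regions, the 10 gene lists and the tests were chosen with earlier results of these data known. Of 478 listed symbols, 478 matched. Named by rule were the 5 regions of highest geometric mean fold, the 3 of highest fold and the 2 of most tilted rank per factor, the 3 farthest from a gene, and those nearest the width and distance limits. Also named were the 5 deserts with most regions, the 3 densest with at least 5, the 10 genes nearest to most regions, the 3 leading genes of each list, the 5 strongest non-coding genes, and every microRNA within 10 kb. The strongest regions within a desert were chosen after their values were seen. Alternatives were other distances (50 and 200 kb), a −log10 q of at least 10, an overlap of 50%, no width limit, genes of every kind, and, added after the data were seen, leaving out 14 regions of low fold and high −log10 q.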

Additional observations from a re-analysis of the deposited data

Results flagged for a closer look

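Chromosome Y, which the analysis of deserts left out, carried 143 Mta2 peaks with a median fold of 3.23, 156 Mbd3 peaks with a median fold of 3.12 and 80 Zbtb7a peaks with a median fold of 3.48. No list of Input peaks was analysed here to set them against.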

How the results depend on the processing

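Of 71 values recomputed under an alternative, 43 moved by less than the counting interval or 1.5 times and 28 moved. With no width limit, with an overlap of 50% of the shorter peak, and without the 14 regions of low fold and high −log10 q, no value moved. With peaks of −log10 q of at least 10, there were 4851 desert regions, a share with all 3 factors of 52.3%, median folds of 9.80 for Mta2, 8.06 for Mbd3 and 7.06 for Zbtb7a, summit distances of 20, 23 and 21 bp, and 41.5% of gaps under 10 kb. By construction, weaker peaks are absent from these. With deserts more than 50 kb from a gene end, there were 12677 regions, a share of 55.2%, a Zbtb7a median of 5.05, 50.7% of gaps under 10 kb and 2564 nearest genes. With more than 200 kb, there were 3867 regions, a share of 52.2%, medians of 6.78 for Mta2 and 4.78 for Zbtb7a, 38.8% of gaps and 849 genes. With genes of every kind as borders, there were 1034 regions, a share of 49.9%, medians of 6.57, 5.61 and 4.67, 42.1% of gaps and 533 genes. Counting overlap alone, 24.8% of desert regions overlapped a non-coding gene. The alternatives of q, distance and bordering genes change by construction which regions enter, while counting overlap alone keeps the same 7763 regions and narrows the criterion. Any other cause was not tested. No paired analysis was possible because the lists hold no value per sample, and for the same reason no replicate could be left out. Fold and peak presence depend on library depth, which was not analysed here.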
